A study of Mus musculus with 10 samples.

Results

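The natriuretic peptide system of the mouse heart was followed across genotype and angiotensin II (AngII) infusion. Its members were taken by gene symbol: the peptide genes Nppa, Nppb and Nppc, the receptor genes Npr1, Npr2 and Npr3, and Corin, which encodes a processing enzyme. The platform annotation gave 9 probe sets for these 7 genes, out of 45037 probe sets and 18193 named genes in all. Npr3 had 3 probe sets and every other member had 1. A probe set is a group of short probes against one transcript, and the brightest probe set stands for Npr3 below.

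Transcript levels were read on 10 one-colour Affymetrix arrays of hearts of male SV129 mice aged 32 weeks, all littermates per the labels. KO mice carried the PKCz -/- genotype, which removes the atypical protein kinase C isoform PKCz, and WT mice carried the intact gene. The hormone AngII, which narrows vessels and loads the heart, was delivered under the skin by osmotic minipumps over 14 days, at a daily dose of 432 µg per kg. Controls are named PBS after the titles, although their source label calls them non-treated. The groups were KO AngII (n = 2, arrays 3 and 4), KO PBS (n = 3, arrays 2, 3 and 4), WT AngII (n = 3, arrays 2, 3 and 4) and WT PBS (n = 2, arrays 3 and 5). Whether each array is a separate animal is not stated, so the p-values reflect the spread between samples, and part of it may be technical. Neither the part of Prkcz that was deleted nor the chambers that were taken are given in the sources used here.

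ANP and BNP, the products of Nppa and Nppb, are hormones that heart muscle cells release under stretch, and they lower blood pressure by promoting salt excretion and relaxing vessels. Both bind the receptor encoded by Npr1, a guanylyl cyclase that makes cyclic GMP, while CNP, the product of Nppc, acts mainly through the related cyclase encoded by Npr2. The receptor encoded by Npr3 has no cyclase domain and clears all 3 peptides. In the adult heart Nppa is made mostly in the atria, and transcripts of Nppa and Nppb in the ventricle are classic markers of hypertrophy.

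Nppa and Nppb lie next to each other on mouse chromosome 4 in the RefSeq annotation of assembly GRCm38.p6, with no annotated gene between them. Their proximal promoters are shown because these neighbours did not follow the same pattern across the arrays. Each sequence is the 250 bases before the annotated transcript start on the plus strand, chr4:148000472-148000721 for Nppa and chr4:147985650-147985899 for Nppb. Capitals mark the TATA box (TATAAA) and matches to the GATA site.
Nppa promoter: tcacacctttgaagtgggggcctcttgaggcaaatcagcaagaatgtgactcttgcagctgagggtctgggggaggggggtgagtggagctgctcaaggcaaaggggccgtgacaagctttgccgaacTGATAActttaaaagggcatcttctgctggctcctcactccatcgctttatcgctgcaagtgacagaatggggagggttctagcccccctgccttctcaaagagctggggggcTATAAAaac
Nppb promoter: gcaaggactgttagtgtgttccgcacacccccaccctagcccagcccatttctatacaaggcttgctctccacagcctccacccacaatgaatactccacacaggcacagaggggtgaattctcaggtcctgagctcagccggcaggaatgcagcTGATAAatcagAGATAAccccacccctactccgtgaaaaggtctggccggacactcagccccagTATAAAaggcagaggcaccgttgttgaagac
All 7 members had a promoter in the RefSeq table. Both strands were searched. The TATA box lay from -9 to -4 of the annotated start in Nppa and from -31 to -26 in Nppb, and 12.3% of the 32526 distinct upstream sequences of this length held one. The GATA site was searched in 4 forms, AGATAA with AGATAG plus TGATAA with TGATAG, which 26.5% of the sequences held. It occurred once in Nppa (TGATAA, -122 to -117), and in Nppb as TGATAA (-95 to -90) and AGATAA (-84 to -79). The core AAGTG of sites for the cardiac homeobox factor NKX2-5, held by 40.6% of the sequences, lay at 2 places in Nppa and was not found in Nppb. The M-CAT element CATTCC, which TEAD factors bind and 12.6% of the sequences held, was found in Nppb on the minus strand (-105 to -100) and not in Nppa. The CArG box, the site of serum response factor, was searched only in the strict form CCWWWWWWGG, with W for A or T. This form was not found in either window, and 1.48% of the sequences held one. Nppa holds ctttaaaagg directly after its GATA site, which departs from this form only in the opening CC. Such near matches were not searched. Among the other 5 members, the promoter of Nppc held the TATA box and no other match was found. A match describes these letters only.

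The targeted gene and the array controls were checked first. Prkcz read 5.70 to 5.87 log2 on the 5 KO arrays and 6.23 to 6.45 on the 5 WT arrays, so the genotypes did not overlap, although the difference of -0.53 ± 0.09 (SE) had an adjusted p of 0.126 by limma. Over all probe sets, array pairs had r between 0.9734 and 0.9951. The bacterial spike-in transcripts, RNAs added before labelling, read 6.90 to 7.08 on KO AngII 3, KO AngII 4 and KO PBS 4 (mean of 24 probe sets) and 12.86 to 13.33 on the other 7 arrays. These sets of arrays are called the low and the high spike-in batch. Both KO AngII arrays were in the low batch and all 5 WT arrays in the high batch, so only KO PBS spanned both. A block for this batch is therefore set by KO PBS 4 against KO PBS 2 and 3 alone. The difference between the 3' and 5' probe sets of beta-actin, which reflects RNA integrity and labelling, was 0.74 to 0.83 in the low batch and 0.92 to 1.70 in the high batch. WT AngII 2 stood apart by the mean of 5 fibroblast markers, at 11.33 against 9.43 to 10.16 on the other arrays, and by that of 4 macrophage markers, at 9.31 against 7.86 to 8.57. Some results are also given without such an array, and ranges with each array left out in turn are given at the end.

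The hearts carried the defining markers of heart muscle. All 6 cardiomyocyte markers averaged 12.8 to 14.6 log2 over the arrays. Of 4 ventricular markers, the light chains Myl2 and Myl3 averaged 14.5 and 14.3 and Irx4 8.13, while Hey2, at 5.14, was below the array medians of 6.12 to 6.23. Of 6 atrial markers, Sln (5.22), Bmp10 (5.20) and Myl7 (6.03) averaged below the array medians, and Dkk3 (6.74), Myl4 (7.66) and Stard10 (8.47) above them. In bulk tissue, fewer cells of a type and less RNA per cell cannot be told apart.

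**Figure D1:**
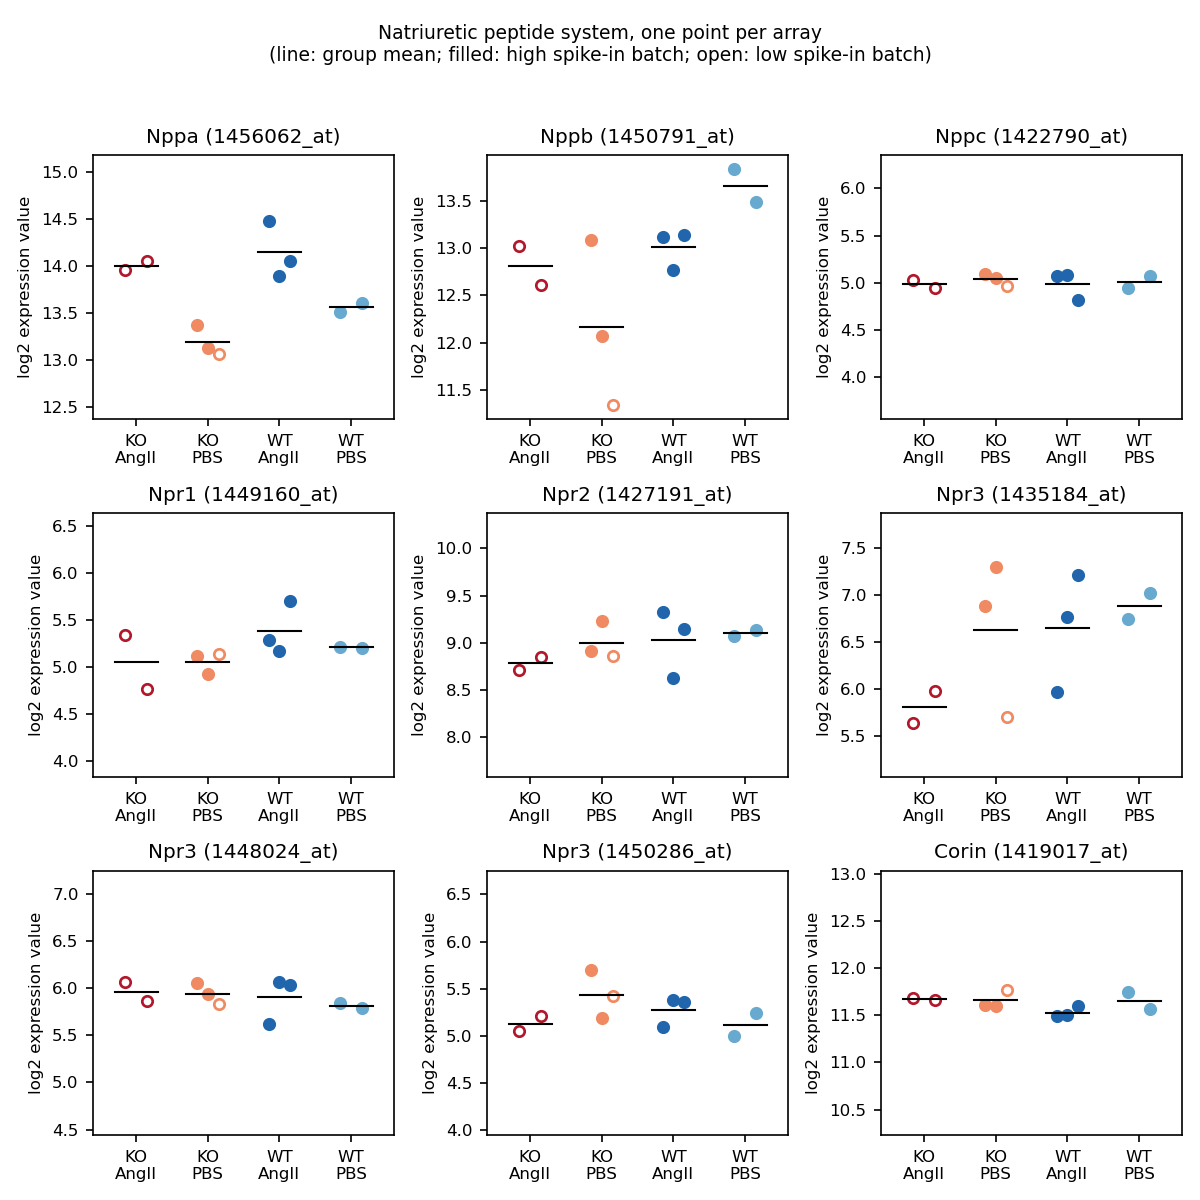
Log2 expression values (vertical axes, each spanning the same 2.8 log2 units) of the 9 probe sets of the natriuretic peptide system, with 1 point per array, grouped by genotype and treatment. Lines are group means and open points are the arrays of the low spike-in batch. Nppa on the AngII arrays (13.90 to 14.48) lay above the PBS arrays (13.07 to 13.60), and Nppb and the brightest Npr3 probe set spread widely within KO PBS.

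Nppa, which encodes the ANP precursor, stood higher on every AngII array than on every PBS array. It read 13.95 and 14.05 log2 on the KO AngII arrays and 13.37, 13.13 and 13.07 on the KO PBS arrays. It read 14.48, 13.90 and 14.05 on the WT AngII arrays and 13.51 and 13.60 on the WT PBS arrays. The group means ran, from high to low, from WT AngII (14.14 ± 0.30, SD) through KO AngII (14.00 ± 0.07) and WT PBS (13.56 ± 0.06) to KO PBS (13.19 ± 0.16). The WT AngII and KO AngII arrays overlapped, and the other neighbours in this order did not. The highest Nppa value, 14.48 on WT AngII 2, was close to 14.68, the top of the scale of all probe sets.

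The AngII difference of Nppa was positive in both genotypes. In KO hearts it was 0.81 ± 0.15 (SE) on the log2 scale, or 1.75-fold, with a 95% interval of 0.49 to 1.13 and an adjusted p of 0.892 by limma (unadjusted 0.000146, the fourth smallest of 45037). In WT hearts it was 0.58 ± 0.15, or 1.5-fold, with an interval of 0.26 to 0.90 and an adjusted p of 0.877 (unadjusted 0.00192). Without WT AngII 2 the WT difference was 0.41. The difference between the genotypes' AngII effects was 0.23 ± 0.21, with an interval of -0.23 to 0.68, and ran from 0.10 to 0.39 when an array was left out. Averaged over genotypes the AngII difference was 0.70 ± 0.10, or 1.62-fold (interval 0.47 to 0.92), with an unadjusted p of 2.45e-05 that ranked 2 of 45037 and an adjusted p of 0.483. It therefore did not pass the threshold of 0.05 adjusted over all probe sets. Without WT AngII 2, which held the highest Nppa value and the high fibroblast and macrophage markers, the averaged difference was 0.61. Its adjusted p by limma was then 0.0722, the smallest of the alternatives, so none passed the threshold for this averaged difference. With the spike-in batch as a block over all arrays the averaged difference was 0.76. The largest adjusted p of the alternatives was 0.9996. Within the low batch, over both KO AngII arrays and KO PBS 4, the KO difference was 0.93, a comparison chosen after the data were seen and given as a value only, since its PBS side is 1 array. The batch block over all arrays gave 0.93 by construction, with an adjusted p of 1.0 by limma. It also sets the KO AngII arrays against KO PBS 4. All WT arrays shared the high batch, so the WT difference lay within it.

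Nppa also stood lower in KO than in WT hearts under PBS. The difference was -0.37 ± 0.15 (interval -0.69 to -0.05), with an unadjusted p of 0.0273 and an adjusted p of 0.747 by limma. Under AngII it was -0.14 ± 0.15 (interval -0.46 to 0.18), and the KO and WT arrays overlapped. Without WT AngII 2 this difference under AngII was 0.025. Among the PBS arrays of the high batch alone the difference was -0.31. The mean of 6 atrial markers was 6.44 to 6.45 on KO AngII, 6.35 to 6.53 on KO PBS, 6.63 to 6.92 on WT AngII and 6.39 to 6.60 on WT PBS arrays. It was highest on WT AngII 2, as Nppa was. The part of atrial tissue in the Nppa values was not tested.

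Nppb, which encodes the BNP precursor, showed no common AngII direction. It read 13.02 and 12.61 log2 on the KO AngII arrays and 13.09, 12.07 and 11.34 on the KO PBS arrays. It read 13.12, 12.77 and 13.14 on the WT AngII arrays and 13.84 and 13.49 on the WT PBS arrays. Both WT PBS arrays were thus the highest of the 10, and the lowest, KO PBS 4, was the KO PBS array of the low batch. The group means ran from WT PBS (13.66 ± 0.24, SD) through WT AngII (13.01 ± 0.21) and KO AngII (12.82 ± 0.29) to KO PBS (12.17 ± 0.88). WT AngII lay wholly below WT PBS, while each of the other neighbouring pairs overlapped.

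The AngII difference of Nppb was 0.65 ± 0.36 (SE) in KO hearts, with an interval of -0.15 to 1.44, and -0.66 ± 0.36 in WT hearts, with an interval of -1.45 to 0.14. The adjusted p-values by limma were 0.892 and 0.930. Leaving out KO PBS 4 gave 0.24 in KO hearts, and leaving out KO PBS 2 gave 1.11. The difference between these effects was 1.3 ± 0.51 (interval 0.18 to 2.43), with an unadjusted p of 0.0267 and an adjusted p of 1.0. It was 2.13 with the spike-in batch as a block and 0.89 without KO PBS 4, and positive under each alternative run. Averaged over genotypes, the effects of opposite sign gave -0.00 ± 0.26 (interval -0.57 to 0.56). Within the low batch the KO difference was 1.47, a value that rests on KO PBS 4 alone as the PBS side. The batch block over all arrays gave 1.47 by construction, with an adjusted p of 1.0 by limma. It also sets the KO AngII arrays against KO PBS 4.

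Nppb stood 2.82-fold lower in KO than in WT hearts under PBS. The difference was -1.5 ± 0.36 (SE), with an interval of -2.29 to -0.70, an unadjusted p of 0.00152 and an adjusted p of 0.466 by limma. It was -1.09 among the PBS arrays of the high batch and -1.96 without KO PBS 2, where the adjusted p was 0.0447. The call therefore turned on 1 array, KO PBS 2, whose Nppb value of 13.09 was above the other KO PBS arrays (12.07 and 11.34). Under AngII the genotypes differed by -0.19 ± 0.36 (interval -0.99 to 0.60) and the arrays overlapped. With the spike-in batch as a block this difference was 1.04. Averaged over treatments the genotype difference was -0.85 ± 0.26 (interval -1.41 to -0.28, adjusted p 0.308), and -0.02 with the batch block. How much of the lower Nppb in KO hearts belongs to the genotype and how much to the batch cannot be told apart for the AngII arrays, where every KO array was low and every WT array high.

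**Figure D2:**
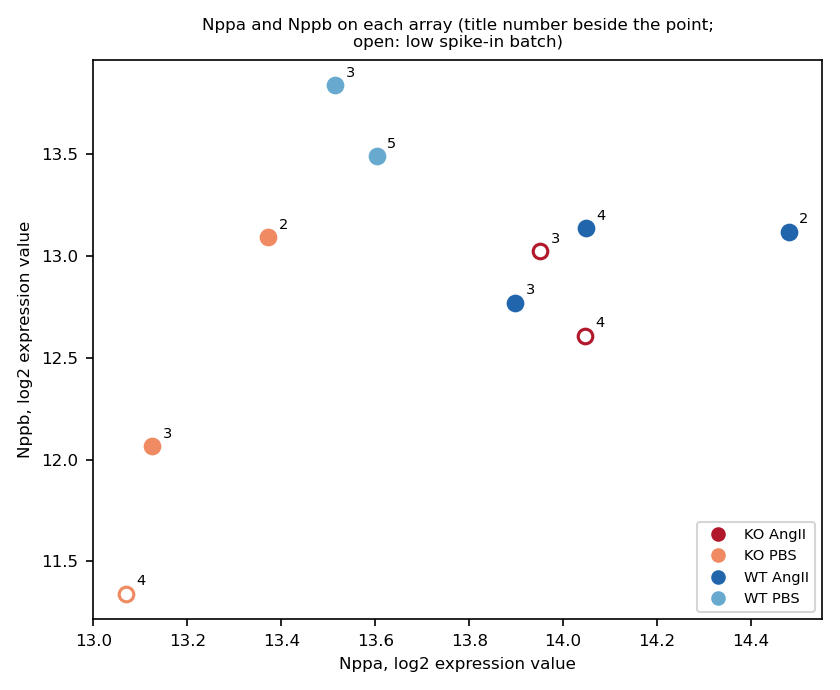
Nppb against Nppa (log2 expression values) on each array, with the title number beside the point and open points for the low spike-in batch. The AngII arrays lie to the right of the PBS arrays on the Nppa axis, while on the Nppb axis WT PBS (13.49 and 13.84) is highest and KO PBS spans 11.34 to 13.09.

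Nppc, which encodes CNP and is made mainly by endothelial cells, was dim on all arrays. It read 5.03 and 4.95 on KO AngII, 5.10, 5.05 and 4.97 on KO PBS, 5.07, 5.09 and 4.81 on WT AngII, and 4.95 and 5.07 on WT PBS arrays. These values spanned 0.28 log2 below the array medians, and the 4 groups overlapped. The AngII difference averaged over genotypes was -0.03 ± 0.08 (SE, interval -0.21 to 0.15), and the genotype difference averaged over treatments was 0.01 ± 0.08 (interval -0.17 to 0.19).

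The gene for the ANP and BNP receptor, Npr1, was also dim. It read 5.34 and 4.77 on KO AngII, 5.11, 4.92 and 5.14 on KO PBS, 5.28, 5.17 and 5.70 on WT AngII, and 5.21 and 5.21 on WT PBS arrays. The KO PBS arrays lay just below the WT PBS arrays, and the groups overlapped in the other 3 comparisons between pairs of groups. The averaged genotype difference was -0.24 ± 0.13 (SE, interval -0.53 to 0.04, adjusted p 0.452 by limma). It was -0.10 without KO AngII 4 and -0.39 without KO AngII 3. The averaged AngII difference was 0.09 ± 0.13 (interval -0.20 to 0.37).

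Npr2, the CNP receptor gene, read 8.71 and 8.85 on KO AngII, 8.91, 9.23 and 8.86 on KO PBS, 9.32, 8.63 and 9.14 on WT AngII, and 9.08 and 9.14 on WT PBS arrays. Both KO AngII arrays lay below the 3 KO PBS arrays, while WT AngII held both the highest and the lowest of the 10 values. The averaged AngII difference was -0.15 ± 0.14 (SE, interval -0.46 to 0.17) and the averaged genotype difference -0.18 ± 0.14 (interval -0.49 to 0.13). When an array was left out they ran from -0.22 to -0.047 and from -0.28 to -0.11.

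Npr3, the clearance receptor gene, varied most among the receptors, and only by its brightest probe set. This probe set, 1435184_at, read 5.64 and 5.98 on the KO AngII arrays and 6.88, 7.30 and 5.71 on the KO PBS arrays. It read 5.96, 6.76 and 7.21 on the WT AngII arrays and 6.74 and 7.02 on the WT PBS arrays. All 3 arrays of the low batch and WT AngII 2 were at 5.98 or lower, and the other 6 arrays were at 6.74 or higher. KO PBS 4 lay with the KO AngII arrays, not with the other KO PBS arrays. The group means ran from WT PBS (6.88 ± 0.20, SD) through WT AngII (6.65 ± 0.63) and KO PBS (6.63 ± 0.82) to KO AngII (5.81 ± 0.24), and every neighbouring pair overlapped.

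The AngII difference of Npr3 by this probe set was -0.82 ± 0.42 (SE, interval -1.74 to 0.10) in KO and -0.23 ± 0.42 (interval -1.15 to 0.68) in WT hearts. The KO minus WT difference was -0.84 ± 0.42 (interval -1.75 to 0.08, adjusted p 0.734 by limma) under AngII and -0.25 ± 0.42 under PBS. With the spike-in batch as a block the AngII difference in KO hearts was 0.10 and the genotype difference under AngII was 0.54, so both turned their sign. Without KO PBS 4 the AngII difference in KO hearts was -1.28, and without KO PBS 3 it was -0.49. Without WT AngII 2 the AngII difference in WT hearts turned to 0.11. The other probe sets of Npr3 did not show the split. Probe set 1448024_at ran from 5.62 to 6.07 and 1450286_at from 5.0 to 5.69 over the 10 arrays. Both lay below the array medians throughout, so signal over background limits what they can show. Their averaged AngII differences were 0.06 ± 0.11 and -0.07 ± 0.11, against -0.53 ± 0.30 for the brightest. By genotype, 1450286_at was at -0.30 ± 0.16 in KO, the direction of the brightest, and at 0.16 ± 0.16 in WT hearts. For 1448024_at the AngII differences were 0.02 ± 0.16 in KO and 0.09 ± 0.16 in WT hearts. The averaged genotype differences of 1448024_at and 1450286_at were 0.09 ± 0.11 and 0.08 ± 0.11, against -0.54 ± 0.30 for the brightest. Endothelial markers, whose cells express this receptor, averaged 8.71 to 8.77 on KO AngII, 8.61 to 9.08 on KO PBS, 8.65 to 9.0 on WT AngII and 8.94 to 9.09 on WT PBS arrays. Endocardial markers averaged 7.33 to 7.72 on KO AngII, 7.09 to 7.72 on KO PBS, 7.34 to 7.94 on WT AngII and 7.49 to 7.77 on WT PBS arrays. The part of these cells in the Npr3 values was not tested.

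Corin, the serine protease gene whose product cleaves the ANP precursor on the surface of heart muscle cells, varied little. It read 11.68 and 11.66 on KO AngII, 11.61, 11.60 and 11.77 on KO PBS, 11.49, 11.50 and 11.60 on WT AngII, and 11.75 and 11.56 on WT PBS arrays. Its whole range was 0.29 log2, against 1.41 for Nppa and 2.50 for Nppb. The KO AngII arrays lay above the WT AngII arrays by a narrow gap. The averaged AngII difference was -0.06 ± 0.08 (SE, interval -0.23 to 0.11) and the averaged genotype difference 0.07 ± 0.08 (interval -0.10 to 0.24).

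**Figure D3:**
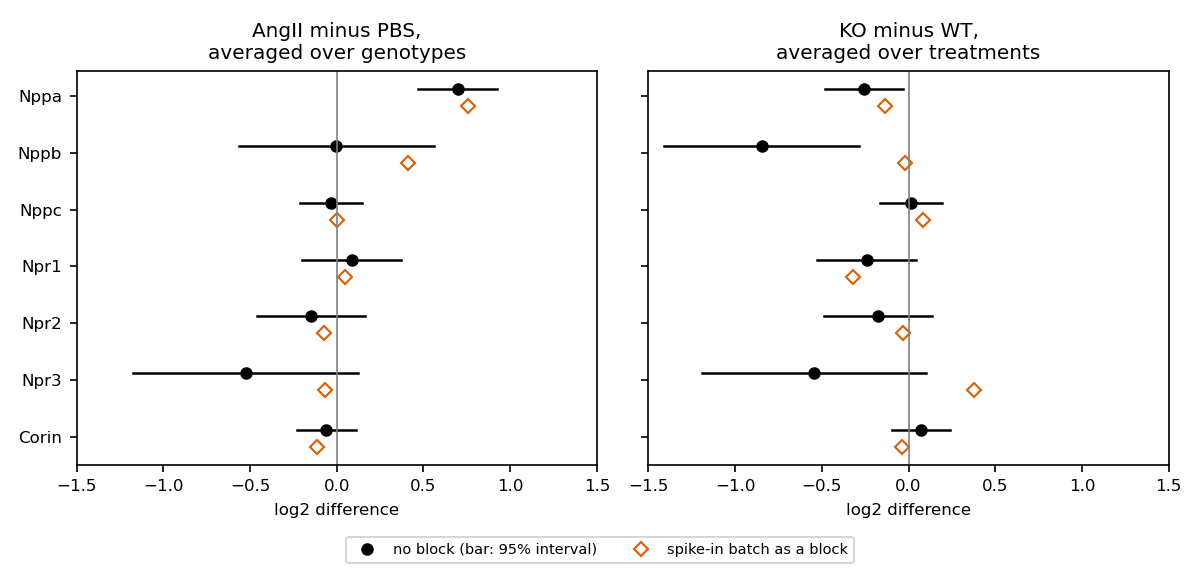
Log2 differences (horizontal axes) of the 7 members for AngII minus PBS averaged over genotypes and for KO minus WT averaged over treatments. Black points carry 95% intervals from limma over all 10 arrays, and open diamonds are the values with the spike-in batch as a block. The block is set by KO PBS alone, the only group in both batches. With it Nppa stays positive for AngII, while the genotype differences of Nppb (-0.85) and Npr3 (-0.54) move to -0.02 and 0.38.

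No member probe set was called in any of the 7 comparisons by limma at an adjusted p under 0.05, and few probe sets were called at all. Called were 0% of the 45037 for AngII minus PBS in KO, in WT, averaged over genotypes and for the difference between the effects. Called were 0.0133% for KO minus WT under PBS (6 probe sets), 0.0111% under AngII (5) and 0.0444% averaged over treatments (20). At an unadjusted p under 0.05, AngII minus PBS held 1 of 9 member probe sets in KO (Nppa, against 4.57% of all) and 1 in WT (Nppa, 5.23%). The difference between the effects held 1 (Nppb, 1.64%). KO minus WT held 2 under PBS (Nppa and Nppb, 6.29%), 0 under AngII (6.51%) and 2 averaged over treatments (Nppa and Nppb, 12.4%). AngII minus PBS averaged over genotypes held 1 (Nppa, 9.62%).

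Separation of the groups was common with so few arrays. The KO AngII and KO PBS arrays did not overlap for 2 of 9 member probe sets (Nppa and Npr2) and for 24.5% of all. The WT AngII and WT PBS arrays did not overlap for 2 (Nppa and Nppb), against 19.7% of all. KO PBS and WT PBS did not overlap for 3 (Nppa, Nppb and Npr1), against 24% of all, and KO AngII and WT AngII for 1 (Corin), against 27.1%. Counts of 1 to 3 of 9 lie near these background shares. When the 5 AngII arrays were set against the 5 PBS arrays, only Nppa separated among the members, in a comparison where 1.07% of all probe sets did (181 higher and 303 lower). No member separated the 5 KO from the 5 WT arrays, which 1.43% of all probe sets did. The median difference of the 7 members was -0.03 for AngII averaged over genotypes, against 0.02 over all probe sets, and -0.24 for KO averaged over treatments, against 0.03. In each of these, 2 members were above 0 and 5 below.

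**Figure D4:**
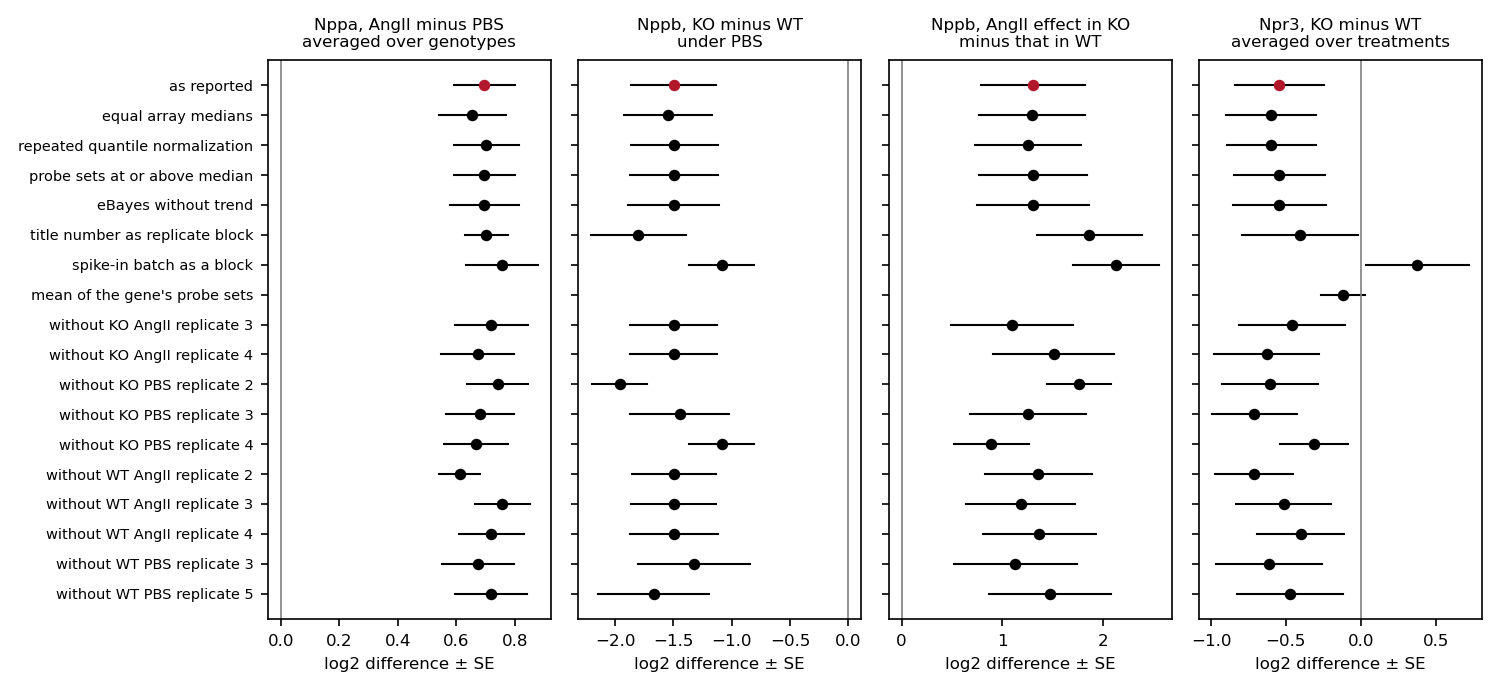
Log2 differences ± SE (horizontal axes) of 4 member results as reported (red) and under each alternative setting (black; rows without a point were not applicable). The Nppa AngII difference stays between 0.61 and 0.76, the Nppb genotype difference under PBS between -1.96 and -1.09, and the Npr3 genotype difference turns positive (0.38) with the spike-in batch as a block.

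The wider pathway was described through 4 lists of 45 measured genes, chosen with earlier results of these data known. No gene of them was called by limma in any of the 7 comparisons. At an unadjusted p under 0.05, 4 of 45 were below the threshold for AngII averaged over genotypes, against 9.62% of all probe sets, and 7 of 45 for KO averaged over treatments, against 12.4%. For KO minus WT there were 5 under PBS (6.29% of all) and 1 under AngII (6.51%). AngII minus PBS had 1 in KO (Tbx3, 4.57%) and 2 in WT (Dpp4 and Hand2, 5.23%), and the difference between the effects had 1 (Hand2, 1.64%). Irag1, a target of the cyclic GMP kinase, and Ostn, a ligand of the clearance receptor, were not matched to a probe set here.

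Among 6 genes of peptide processing and degradation, the median AngII difference averaged over genotypes was -0.03. Mme, which encodes neprilysin, the protease that degrades natriuretic peptides, stood lower by -0.37 ± 0.18 (SE). Dpp4, a peptidase that trims BNP, stood higher by 0.25 ± 0.12, and Ece1, the endothelin converting enzyme, was at -0.23 ± 0.12. Dpp4 was dim, with a mean of 6.09 log2, below the array medians. The median KO minus WT difference was -0.14. Ece1 was at -0.24 ± 0.12. Furin, which cleaves the BNP precursor, and Pcsk6, which activates corin, were both at -0.15, with SEs of 0.12 and 0.11. With the batch block Ece1 was at -0.12, Furin at -0.036 and Pcsk6 at -0.32. Mme, for AngII, was at -0.20 without WT PBS 5. None of these values passed the threshold (adjusted p 0.429 to 0.586 by limma for those named here).

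The 13 effectors and phosphodiesterases of cyclic GMP had a median AngII difference of -0.03 and a median genotype difference of -0.11. Rgs2, a brake on G protein alpha-q signalling that the cyclic GMP kinase activates, read 9.12 and 9.17 on KO AngII and 9.28, 9.57 and 9.56 on KO PBS arrays. It read 8.99, 8.51 and 8.83 on WT AngII and 9.31 and 8.99 on WT PBS arrays. Its AngII values were thus lower and its KO values higher, by -0.35 ± 0.13 (SE, adjusted p 0.487 by limma) and 0.35 ± 0.13 (adjusted p 0.348), with overlapping arrays in both. For AngII, Pde3a and Pde1a, both phosphodiesterase genes, stood at 0.34 ± 0.21 and 0.29 ± 0.18. Pde1a was 0.12 without WT AngII 2. Pde3a read 7.76 and 7.02 on KO AngII, 6.36, 6.54 and 7.44 on KO PBS, 6.83, 6.47 and 6.63 on WT AngII, and 6.74 and 6.40 on WT PBS arrays, so the 3 arrays of the low batch were the highest. Pde5a, which degrades cyclic GMP, stood at -0.45 ± 0.18 in KO minus WT, and at -0.29 without WT PBS 5. Pde3a, which degrades cyclic AMP and is inhibited by cyclic GMP, stood at 0.47 ± 0.21 in KO minus WT. With the spike-in batch as a block Pde3a was at 0.014 for AngII and -0.18 for genotype. The adjusted p-values of Pde5a and Pde3a for genotype were 0.362 and 0.400.

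The 6 genes of nitric oxide synthesis and soluble guanylyl cyclase, the other source of cyclic GMP, had a median AngII difference of 0.20 and a median genotype difference of -0.19. The inducible synthase gene Nos2 stood at 0.27 ± 0.12 (SE) and the endothelial Nos3 at -0.29 ± 0.15 for AngII. Nos2 was dim, with a mean of 6.09 log2, below the array medians, and stood at 0.17 without WT PBS 5. The cyclase subunits Gucy1a1 and Gucy1b1 stood at -0.40 ± 0.23 and -0.37 ± 0.20 for KO minus WT. Both were highest on WT AngII 2 (8.96 and 8.42), and without that array the differences were -0.20 and -0.21. The neuronal synthase gene Nos1 stood at 0.20 ± 0.14 for AngII and 0.22 ± 0.14 for KO minus WT. With the batch block Nos1 was 0.083 for AngII and -0.013 for KO minus WT, and Nos3 was -0.11 for AngII. None passed the threshold, with adjusted p-values of 0.444 to 0.643 by limma.

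The 20 transcriptional regulators listed for Nppa and Nppb, cofactors and histone deacetylases among them, had a median AngII difference of -0.15 and a median genotype difference of -0.07. Tbx3, a repressor of Nppa, read 6.66 and 6.51 on KO AngII, 7.31, 7.78 and 6.68 on KO PBS, 7.06, 6.68 and 6.95 on WT AngII, and 7.41 and 7.30 on WT PBS arrays. Its AngII difference was -0.57 ± 0.18 (SE, adjusted p 0.483 by limma), the lowest KO PBS array was that of the low batch, and the batch block gave -0.28. Rest, which encodes a repressor of fetal cardiac genes, stood at -0.41 ± 0.18 (-0.26 with the batch block), and the histone deacetylase gene Hdac4 at -0.23 ± 0.11.

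Between the genotypes, the T-box activator Tbx5 read 8.43 and 8.43 on KO AngII, 8.52, 8.88 and 8.63 on KO PBS, 7.93, 8.23 and 8.16 on WT AngII, and 8.33 and 8.25 on WT PBS arrays. Every KO array was above every WT array, and 1.43% of all probe sets separated the genotypes in either direction. Tbx5 was named for its small p in this same comparison. Its difference was 0.35 ± 0.11 (SE), with an adjusted p of 0.318 by limma. Tbx20 ran the other way, at -0.36 ± 0.11 (adjusted p 0.300; -0.55 with the batch block), with 10.30 and 10.56 on KO AngII, 10.23, 9.97 and 10.39 on KO PBS, 10.73, 10.54 and 10.66 on WT AngII, and 10.69 and 10.70 on WT PBS arrays. The KO and WT arrays of Tbx20 overlapped. Tbx2, another repressor of Nppa, stood at -0.28 ± 0.11, but was dim, with a mean of 5.34 log2, below the array medians. Gata4, whose product binds GATA sites of the kind marked in the Nppa and Nppb promoters, was at 0.00 ± 0.12 for AngII and -0.06 ± 0.12 for KO minus WT. Its AngII value averages opposite signs, 0.16 ± 0.16 in KO and -0.15 ± 0.16 in WT hearts. Gata4 was added after its values were seen.

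**Figure D5:**
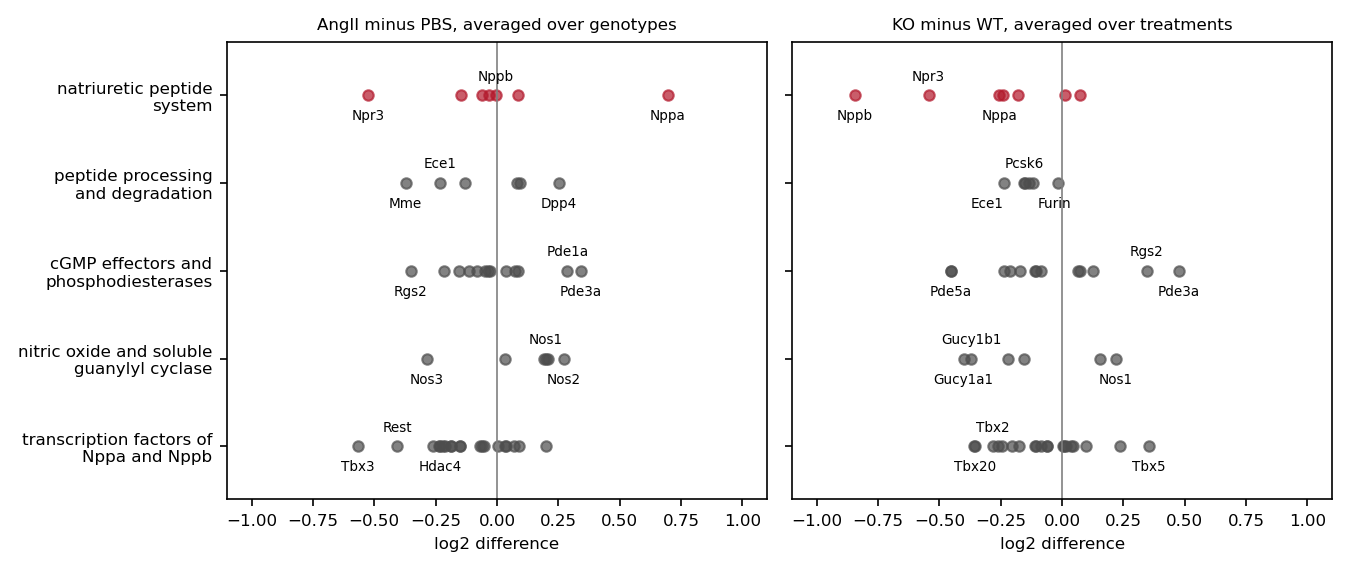
Log2 differences (horizontal axes) of the 7 members (red) and of the 45 genes of the 4 pathway lists (grey), with 1 point per gene. For AngII minus PBS, Nppa (0.70) lies farther from 0 than any gene of the lists, and for KO minus WT Nppb (-0.85) and Npr3 (-0.54) do.

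The genes most like each member across the arrays were taken by Pearson's r over the 10 arrays among 12122 or 12123 genes, as a description with no test, since the arrays share groups and batches. For Nppa these were Mrgprf (r = 0.96, Spearman's rho = 0.94), Dynll1 (0.94, 0.98) and Tbxa2r (0.92, 0.94), and their r stayed at 0.85 to 0.92 without the 2 arrays farthest from the Nppa median. For Nppb they were Otulin (0.93, 0.81), Nudt18 (0.93, 0.85) and Mafk (0.92, 0.93), with r of 0.84 to 0.89 after that step. None of these genes is on any list used here.

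The receptors and Corin had their own nearest genes. Npr2 was followed by Fam241a (r = 0.98), Rnf215 (0.98) and Itpkc (0.97), and Npr3 by Arglu1 (0.97), Mrpl12 (0.96) and Ecd (0.94). Corin was followed by the mitochondrial enzyme genes Dld, Sdhd and Uqcrfs1 (0.89 each). Npr1 was followed by Scrn2 (0.90), Hectd4 (0.86) and Ankrd13b (0.86), and Nppc by Pde3b (0.84), Ing1 (0.82) and Tpm2 (0.80). Over its 10 dim and close values the likeness of Nppc rested on few arrays, with an r of 0.29 for Ing1 once 2 arrays were left out.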

How the data were processed

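The authors deposited log2 expression values per probe set; the submitters' processing notes name RMA, with no version in the sources used here. RMA corrects background, equalises array distributions and summarises probes, which compresses differences of dim probe sets. Per the labels' protocols, biotinylated cRNA was made from 6 µg of total RNA. Array medians were 6.12 to 6.23, and precision is limited by the number of arrays.

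The 64 control probe sets were removed. GEO's platform annotation gave 1 symbol for 34945 of 45037 probe sets, several for 932 and none for 9160. Symbols were updated by Entrez identifier with the RefSeq gene table of GRCm38.p6. The probe set with the highest mean, among those with 1 symbol, stood for a gene.

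Differences came from limma 3.58.1 (R 4.3.3): lmFit on the means of 4 groups across the 10 arrays with 6 residual degrees of freedom, then eBayes with trend and two-sided tests. Benjamini-Hochberg adjustment covered the 45037 probe sets in each of 7 comparisons, and a call is an adjusted p under 0.05. Values are log2 differences ± SE with 95% intervals unless SD is stated. The scripts were tested on simulated data.

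The members, pathway lists, marker lists and tests were chosen with earlier results of these data known. Pathway genes described with values were the 3 of each list with the smallest unadjusted p in an averaged comparison, with Gata4 added. Likeness was taken over genes at or above the median level. The alternatives changed the normalisation (array medians set equal, or quantile normalisation repeated), dropped dim probe sets, ran eBayes without trend, added the title number (replicate block) or the spike-in batch as a block, fitted only the arrays compared, averaged the probe sets of a gene, or left out 1 array. For the named pathway genes, the batch block and leaving out an array were chosen after seeing the data, as was the fit within the low batch. Promoters came from a RefSeq table of GRCm38.p6.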

Additional observations from a re-analysis of the deposited data

How the results depend on the processing

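Of 485 values of member differences under alternative settings, 447 kept their direction and their side of the threshold, 3 passed it in addition and 35 changed sign. For Nppc, Npr1, Npr2 and Corin these values covered the averaged comparisons only. No member was called as reported, so no call could be lost, and keeping the side meant staying uncalled. Those that passed were Nppb for KO minus WT under PBS without KO PBS 2 (-1.96), and Nppa (0.93) and Nppb (1.47) for AngII minus PBS in KO within the low spike-in batch, chosen after seeing the data, where 2 member probe sets were called against 0. The PBS side of that fit is 1 array, so it supports no call. Leaving out an array gave 0 to 1 member probe sets called for KO minus WT under PBS. Fits that leave a group with 1 array take its spread from the other groups.

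With the spike-in batch as a block, the signs turned for Npr3 by its brightest probe set in AngII minus PBS in KO (0.10), the difference between the AngII effects (0.33) and KO minus WT under AngII (0.54), under PBS (0.21) and averaged (0.38). The same block turned KO minus WT under AngII for Nppa (0.035) and Nppb (1.04), the averaged AngII difference for Nppb (0.41) and Nppc (0.0020), and averaged KO minus WT for Corin (-0.040). Within the high batch Npr3 for KO minus WT under PBS was 0.21, and within the low batch Npr3 for AngII in KO was 0.10. These repeat the block values, because both rest on the same KO PBS arrays. For Npr3 the mean of its probe sets gave 0.0052 for AngII in WT and 0.064 for KO minus WT under PBS. Repeated quantile normalisation gave 0.0016 for Nppb (AngII averaged) and -0.050 for Nppc (KO minus WT averaged), and equal medians -0.040 for the same Nppc difference. The cause was not tested.

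The title numbers showed no clear pairing: of 10 same-numbered pairs, 1 had deviations correlating above 0.1 (r from -0.36 to 0.10). Deviations within groups of 2 or 3 arrays depend on each other, so these values cannot decide whether samples were paired. The title number as a replicate block gave 0.066 for Nppb in KO minus WT under AngII, 0.035 for Nppc in AngII averaged, and for Npr3 0.15 (AngII in WT) and 0.13 (KO minus WT under PBS). It called 0 member probe sets.

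Leaving out each array in turn moved KO minus WT under AngII between -0.27 and 0.025 for Nppa and between -0.40 and 0.014 for Nppb. It moved the averaged AngII difference between -0.21 and 0.23 for Nppb, -0.062 and 0.012 for Nppc, and -0.058 and 0.23 for Npr1. It moved averaged KO minus WT for Nppc between -0.031 and 0.044. For Npr3 it moved AngII in WT between -0.52 and 0.11 and KO minus WT under PBS between -0.58 and 0.21.

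Over all probe sets, averaged KO minus WT had 20 calls as reported, 5 with either block, 13 without trend or with only brighter probe sets, and 10 to 30 when an array was left out. KO minus WT under PBS had 6 calls, 3 with the replicate block, 3 in the high batch and 4 to 22 when an array was left out (22 without WT AngII 2). KO minus WT under AngII had 5 calls, 2 with the batch block, 3 with the replicate block and 4 to 8 when an array was left out. RMA values carry no detection call, so Nppc, Npr1 and the dimmer Npr3 probe sets, all below the array medians, are limited by signal over background.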
